A study of Homo sapiens with 15 samples.

Results

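The genes described are the SMAD genes other than the transfected SMAD3, together with SMAD inhibitors: SMAD1, SMAD2, SMAD4, SMAD5, SMAD6 and SMAD7, the corepressors SKI and SKIL, and the ubiquitin ligases SMURF1 and SMURF2. They were taken by symbol, and all 10 of them were found among the 37787 genes of the count table. RNA was measured in HGrC1 cells, a human granulosa cell line that is immortalized, not luteinized and carries the normal FOXL2 gene, used at a single passage. There were 5 conditions of 3 libraries (replicates A, B and C): empty vectors (Vectors), FOXL2WT, FOXL2C134W, FOXL2WT + FOXO1 and FOXL2C134W + FOXO1, where FOXL2C134W carries the substitution found in adult granulosa cell tumors. SMAD3 was co-transfected in every condition but Vectors, and FOXO1 stands for FOXO1-3A, a mutant that is constitutively active and stays in the nucleus. All plasmids were delivered transiently by lipofection for 4 h, followed by 24 h without serum, so each library mixes cells that did and did not take up plasmid, and a large change in few cells cannot be told apart from a small change in many. No source used here states that the 3 replicates came from separate cultures, so p-values measure the spread between these libraries, which may be technical.

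SMAD proteins carry signals of the TGF-beta family, which includes activins, BMPs and AMH, from receptors at the membrane to genes in the nucleus. Receptors activate SMAD2 and SMAD3 (the TGF-beta and activin branch) or SMAD1, SMAD5 and SMAD9 (the BMP branch), which then bind the common partner SMAD4. SMAD6 and SMAD7 block this step and are themselves induced by the pathway, SKI and SKIL repress transcription at SMAD-bound genes, and the SMURF ligases mark SMADs and receptors for degradation. In granulosa cells this pathway takes part in follicle growth, and FOXL2 binds SMAD3.

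Library totals ran from 14962245 to 25339094 estimated gene counts. The transfected genes followed the labels. SMAD3 was at 249 CPM (counts scaled to the library total, with TMM) ± 12 (SD, n = 3) in Vectors, 2768 ± 154 in FOXL2WT, 843 ± 37.4 in FOXL2C134W, 969 ± 10.8 in FOXL2WT + FOXO1 and 392 ± 16.9 in FOXL2C134W + FOXO1. The counts do not separate plasmid from endogenous transcripts, and conditions that differ in the FOXL2 allele or in FOXO1 differ in SMAD3 as well, so that the effect of either cannot be told apart from that of the SMAD3 level. FOXL2 itself was at 8.73 CPM ± 0.70 in Vectors, 561 ± 5.90 in FOXL2WT and 147 ± 27.0 in FOXL2C134W. Of the granulosa markers, GATA4 was at 144 to 154 CPM and KITLG at 36.3 to 39.9 CPM in Vectors, while FSHR had 0 counts and CYP19A1 at most 4 counts in all libraries. The leukocyte marker PTPRC reached at most 5 counts, and the theca markers LHCGR and CYP17A1 at most 0 and 1. Other markers were high: over the 15 libraries CD68 (leukocytes) was at 88.75 to 116.6 CPM, COL1A1 (stroma) at 1062 to 1582 CPM, and the epithelial keratins KRT8 and KRT18 at 2497 to 2849 and 1668 to 1920 CPM. In the same lists the stroma markers DCN and PDGFRA reached at most 5 counts and 1.61 CPM. The epithelial markers CDH1 and EPCAM reached at most 0.52 and 7.72 CPM. Of further granulosa markers, INHA and AMHR2 reached at most 4 and 7 counts, and AMH at most 1.94 CPM. The part of these markers in the results was not tested.

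The level per transcript length was compared between genes in Vectors, in TPM (reads of a transcript over its length, scaled to a fixed total per library). Restricted to transcripts of at least 1000 bases, SMURF2 was highest at 59.4 TPM ± 3.0 (SD, n = 3), followed by SMAD2 at 51.0 ± 2.03 and SMAD4 at 47.7 ± 2.30. The ranges of SMAD2 and SMAD4 over the 3 libraries overlapped. SMAD7 (24.9 ± 1.70) and SKIL (20.3 ± 1.31) formed a middle range. SMAD5 (14.3 ± 0.82), SMURF1 (11.8 ± 0.39), SMAD1 (10.8 ± 0.75), SKI (8.72 ± 0.45) and SMAD6 (7.28 ± 0.35) were lowest. The summed TPM of a gene over all its transcripts was a less steady measure. For SMAD4 it was 132 ± 3.24, most of it in short transcripts, among them a coding one of 582 bases, and for SMAD1 it ranged from 11.6 to 31.4 between the 3 Vectors libraries, against 10.1 to 11.6 in the long transcripts.

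**Figure D1:**
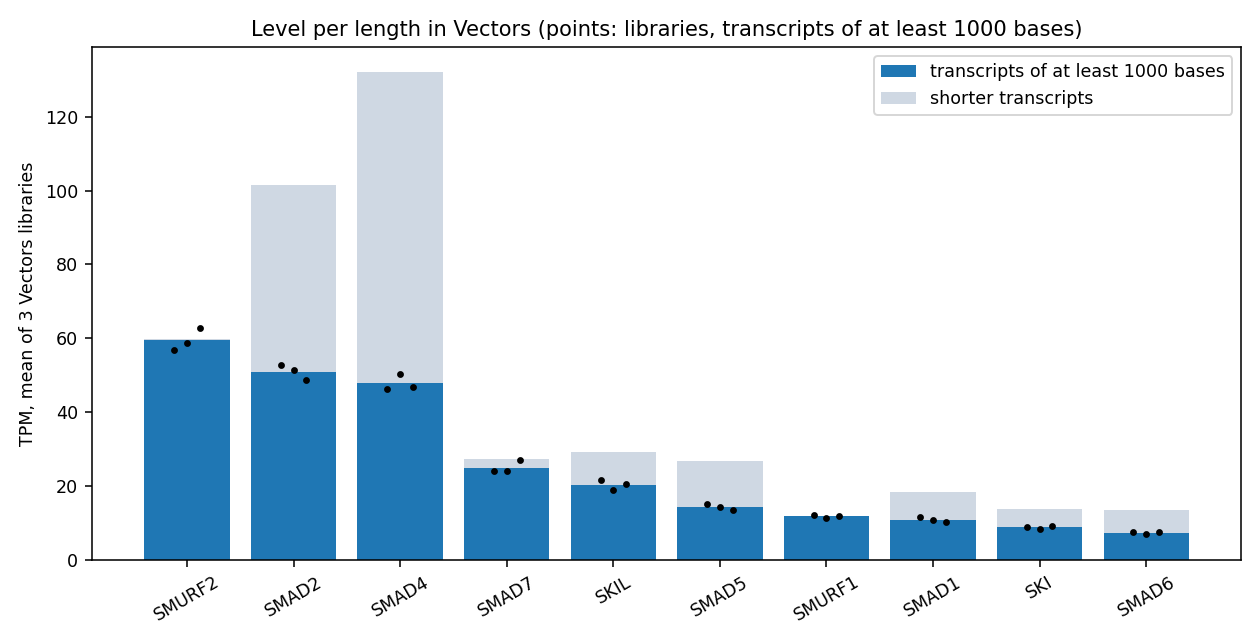
Level per transcript length (TPM, bars, mean of 3 Vectors libraries) of the 10 genes, split into transcripts of at least 1000 bases (dark, with the libraries as points) and shorter ones (light). SMURF2, SMAD2 and SMAD4 led in long transcripts (59.4, 51.0 and 47.7 TPM), and short transcripts added most to SMAD4 and SMAD2.

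All 10 genes passed the filter on low counts, and none of them varied widely. The highest of the 15 libraries exceeded the lowest by 1.14-fold for SMURF1 and SMAD2 and by 1.36-fold for SKI, with 370 to 4642 estimated counts behind a value. Of 70 tests, 10 genes in 7 comparisons, 3 passed an adjusted p of 0.05 in the quasi-likelihood test of edgeR, and these concerned SKI and SMURF2. In FOXL2C134W against Vectors 2 of 10 genes rose, where 14.7% of the 13868 genes tested were called and 7.48% rose. In FOXL2C134W against FOXL2WT 1 of 10 rose, where 11.2% of all genes were called and 7.13% rose. In FOXL2WT against Vectors 0 of 10 were called by edgeR, against a background of 6.07%, with 2 at an unadjusted p under 0.05 and 1 called by DESeq2 (990 over all genes). These member counts lie near the background shares.

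FOXO1 gave fewer calls over the whole table and 0 of 10 among these genes in each comparison by edgeR. The background of edgeR calls was 0.0505% for FOXL2WT + FOXO1 against FOXL2WT. There 3 of the genes had an unadjusted p under 0.05, and DESeq2 called 0, with 62 called over all genes. The edgeR background was 0.714% for FOXL2C134W + FOXO1 against FOXL2C134W (1 at an unadjusted p under 0.05, 1 by DESeq2 with 214 over all genes). For FOXL2C134W + FOXO1 against FOXL2WT + FOXO1 it was 0.144% (1 at an unadjusted p under 0.05, 1 by DESeq2 with 137 over all genes). For the interaction, the effect of FOXO1 in FOXL2C134W minus its effect in FOXL2WT, the background was 1.38%, with 2 genes at an unadjusted p under 0.05 and 0 called by DESeq2 (365 over all genes). The share of all genes at an unadjusted p under 0.05 was not counted, so member counts at that threshold have no background here. Comparisons that share a condition share its libraries, so their values are not independent of each other.

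**Figure D2:**
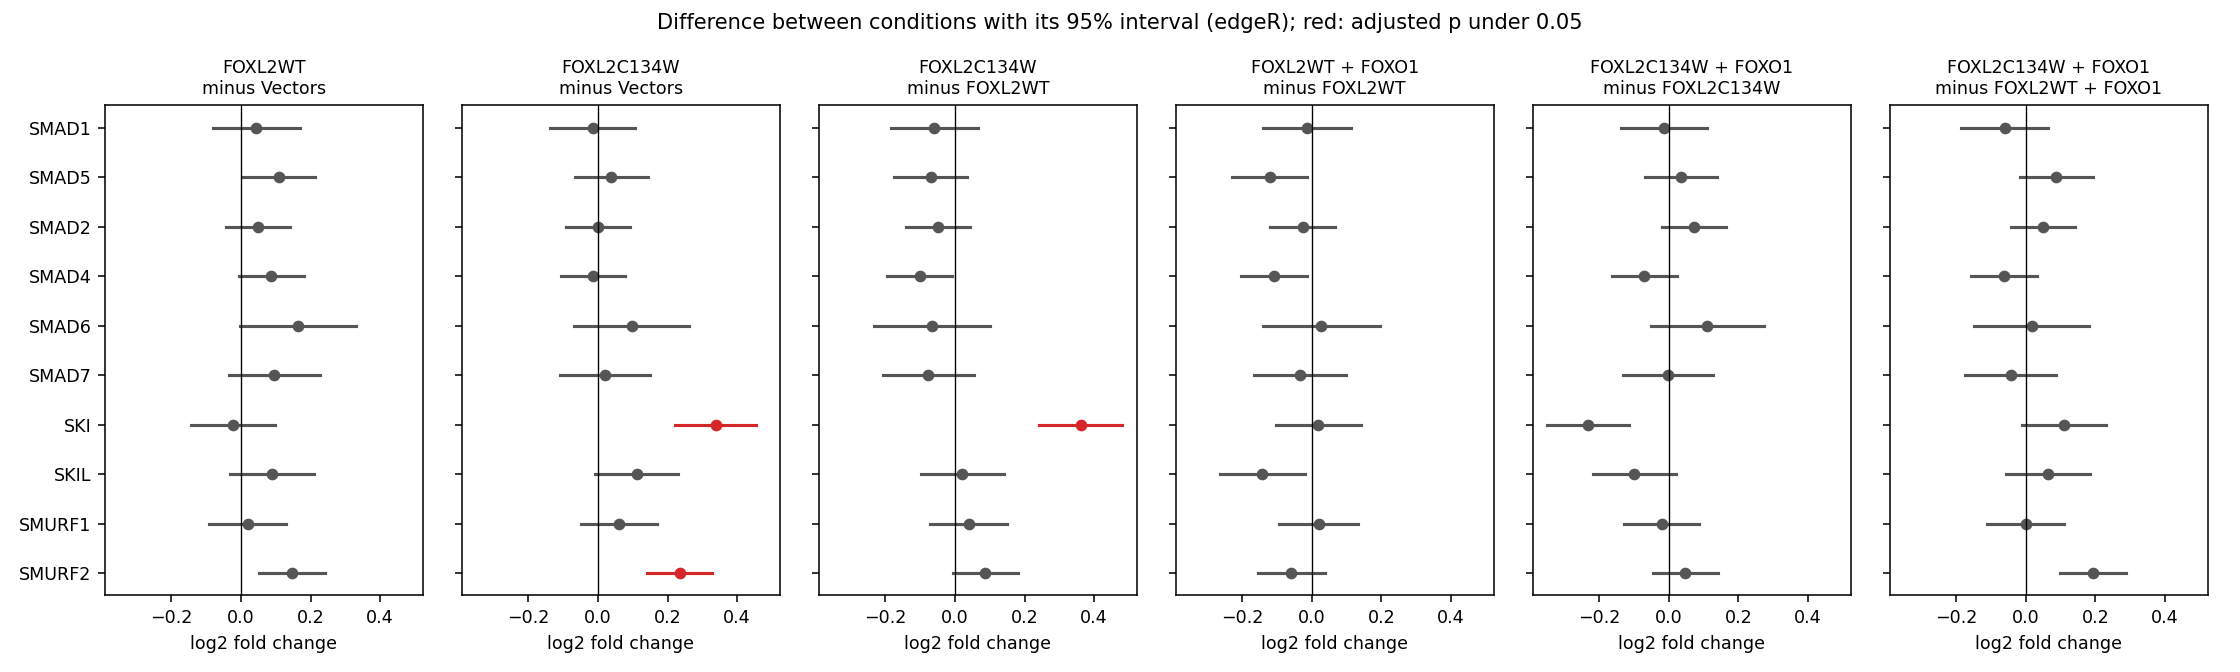
Difference between conditions (log2 fold change, point) with its 95% interval (line) from edgeR for the 10 genes in 6 comparisons, called values in red. SKI is the one gene called in FOXL2C134W against FOXL2WT (0.36), and SKI (0.34) and SMURF2 (0.23) are called in FOXL2C134W against Vectors.

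The receptor-activated SMADs stayed within narrow bounds. SMAD2 (chr18:47808957-47931146, minus strand, GRCh38), the endogenous counterpart of the transfected SMAD3 in the activin branch, was at 124 to 125 CPM in the 3 Vectors libraries, 121 to 134.2 in FOXL2WT and 119.6 to 129.5 in FOXL2C134W, and these ranges overlapped. Its difference between FOXL2WT and Vectors was 0.05 on the log2 scale with a 95% interval from -0.04 to 0.14, and between FOXL2C134W and Vectors it was -0.0006 (-0.09 to 0.09). SMAD3 differed by 3.47 and 1.76 on the same scale in these comparisons.

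The BMP branch did not pass the test either. SMAD1 (chr4:145481194-145559176) was at 24.3 to 26.4 CPM in Vectors, 25.5 to 26.8 in FOXL2WT and 25.2 to 25.3 in FOXL2C134W, the narrowest range of any condition for this gene. SMAD5 (chr5:136132845-136188747) was at 88.4, 87.0 and 83.2 CPM in Vectors and 93.1, 96.7 and 89.2 CPM in FOXL2WT. The FOXL2WT libraries all lay above those of Vectors, by 0.11 ± 0.05 (log2, SE), which did not pass after adjustment (edgeR adjusted p = 0.23). With FOXO1 added to FOXL2WT, SMAD5 was at 81.3 to 89.3 CPM (-0.12 ± 0.05, edgeR adjusted p = 0.49), overlapping FOXL2WT by a single library on each side.

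SMAD4 (chr18:51028528-51085045), the partner shared by both branches, was at 129.9, 125 and 124 CPM in Vectors, 136, 139 and 128 CPM in FOXL2WT and 125 CPM in each of the FOXL2C134W libraries. Every FOXL2C134W library lay below every FOXL2WT library. The difference was -0.10 ± 0.04 on the log2 scale (95% interval -0.19 to -0.01) and was not called (edgeR adjusted p = 0.16). On reads of transcripts of at least 1000 bases, an alternative chosen after seeing the data, it was -0.15 ± 0.05 and passed (edgeR adjusted p = 0.041). Exons of SMAD4 share 967 bases (4.93%) with those of an unnamed gene on the same strand. SMAD4 showed its lowest mean, 119 CPM ± 5.42 (SD, n = 3), in FOXL2C134W + FOXO1.

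The inhibitory SMADs, which compete with the receptor-activated SMADs, were lowest in mean in Vectors and differed little between the other conditions. SMAD6 was at 26.1, 24.8 and 26.5 CPM in Vectors and 29.4, 26.7 and 30.4 CPM in FOXL2WT. These ranges did not overlap, and the difference was 0.16 ± 0.08 on the log2 scale (95% interval -0.004 to 0.33), which was not called. SMAD7 (chr18:48919853-48950965), the other inhibitory SMAD, was at 52.4 to 59.7 CPM in Vectors and 57.3 to 61.3 CPM in FOXL2WT (0.10 ± 0.06). For SMAD7 all neighbours in the order of conditions overlapped.

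The promoter of SMAD6 (chr15:66702236-66782849 for the gene) is shown because it was the one promoter among these genes with the palindrome that SMAD proteins bind. In RefSeq promoter windows (GRCh38.p14, 250 bases before to 50 after the start), 9 of the 10 genes had an entry, with 16 windows in all, and SKI had none. The palindrome GTCTAGAC, which reads the same on both strands, was in 0.202% of 35116 windows. In SMAD6 it began 12 bases before the start. The 120 bases before the start, chr15:66702116-66702235 on the plus strand, read as follows, with the palindrome in capitals.
SMAD6: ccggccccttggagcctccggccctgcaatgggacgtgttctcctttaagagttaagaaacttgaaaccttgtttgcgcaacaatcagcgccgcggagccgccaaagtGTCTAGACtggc
The GC-rich element GGCGCC, also its own reverse complement, was in the windows of SMAD1, SMAD2, SMAD4, SMAD5 and SKIL and in 19.2% of all windows. The forkhead element GTAAACA, searched on both strands, was in no window of these genes and in 3.42% of all windows.

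SKI (chr1:2227388-2310213, plus strand) recruits histone deacetylases and corepressors to SMAD2, SMAD3 and SMAD4. It was at 44, 43 and 46.2 CPM in the Vectors libraries A, B and C. In FOXL2WT it was at 44.8, 43.8 and 42.6 CPM, and in FOXL2C134W at 57.8, 57.2 and 53.5 CPM. The 3 FOXL2C134W libraries lay above all other libraries of the series, and the FOXL2WT and Vectors libraries were mixed with each other. SKI rose 1.29-fold in FOXL2C134W against FOXL2WT (log2 fold change 0.36 ± 0.06, SE, 95% interval 0.24 to 0.48, edgeR adjusted p = 0.0005). Against Vectors the rise was 1.26-fold (0.34 ± 0.06, edgeR adjusted p = 0.00047), while FOXL2WT against Vectors gave -0.02 (95% interval -0.14 to 0.10).

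With FOXO1, SKI was at 48.0, 50.5 and 44.9 CPM in FOXL2C134W + FOXO1 and at 43.1, 47.1 and 42.5 CPM in FOXL2WT + FOXO1. The FOXL2C134W + FOXO1 libraries lay below those of FOXL2C134W without overlap and overlapped those of FOXL2WT + FOXO1. The difference from FOXL2C134W was -0.23 ± 0.06 on the log2 scale and missed the threshold in edgeR (adjusted p = 0.058). It passed in 1 of 6 fits without 1 library, that without replicate B of FOXL2C134W + FOXO1 (-0.28, adjusted p = 0.026), and in 3 of 9 other alternatives, among them DESeq2 (-0.23, adjusted p = 0.021). In the fits where it did not pass, the edgeR adjusted p reached 0.28 without 1 library, and it was 0.16 with the GC offset (-0.18) and 0.53 in DESeq2 with transcript length offsets (-0.60). Against the effect of FOXO1 in FOXL2WT, which was 0.02, its effect in FOXL2C134W differed by -0.25 ± 0.08, and this interaction was not called (edgeR adjusted p = 0.16, 95% interval -0.42 to -0.08).

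**Figure D3:**
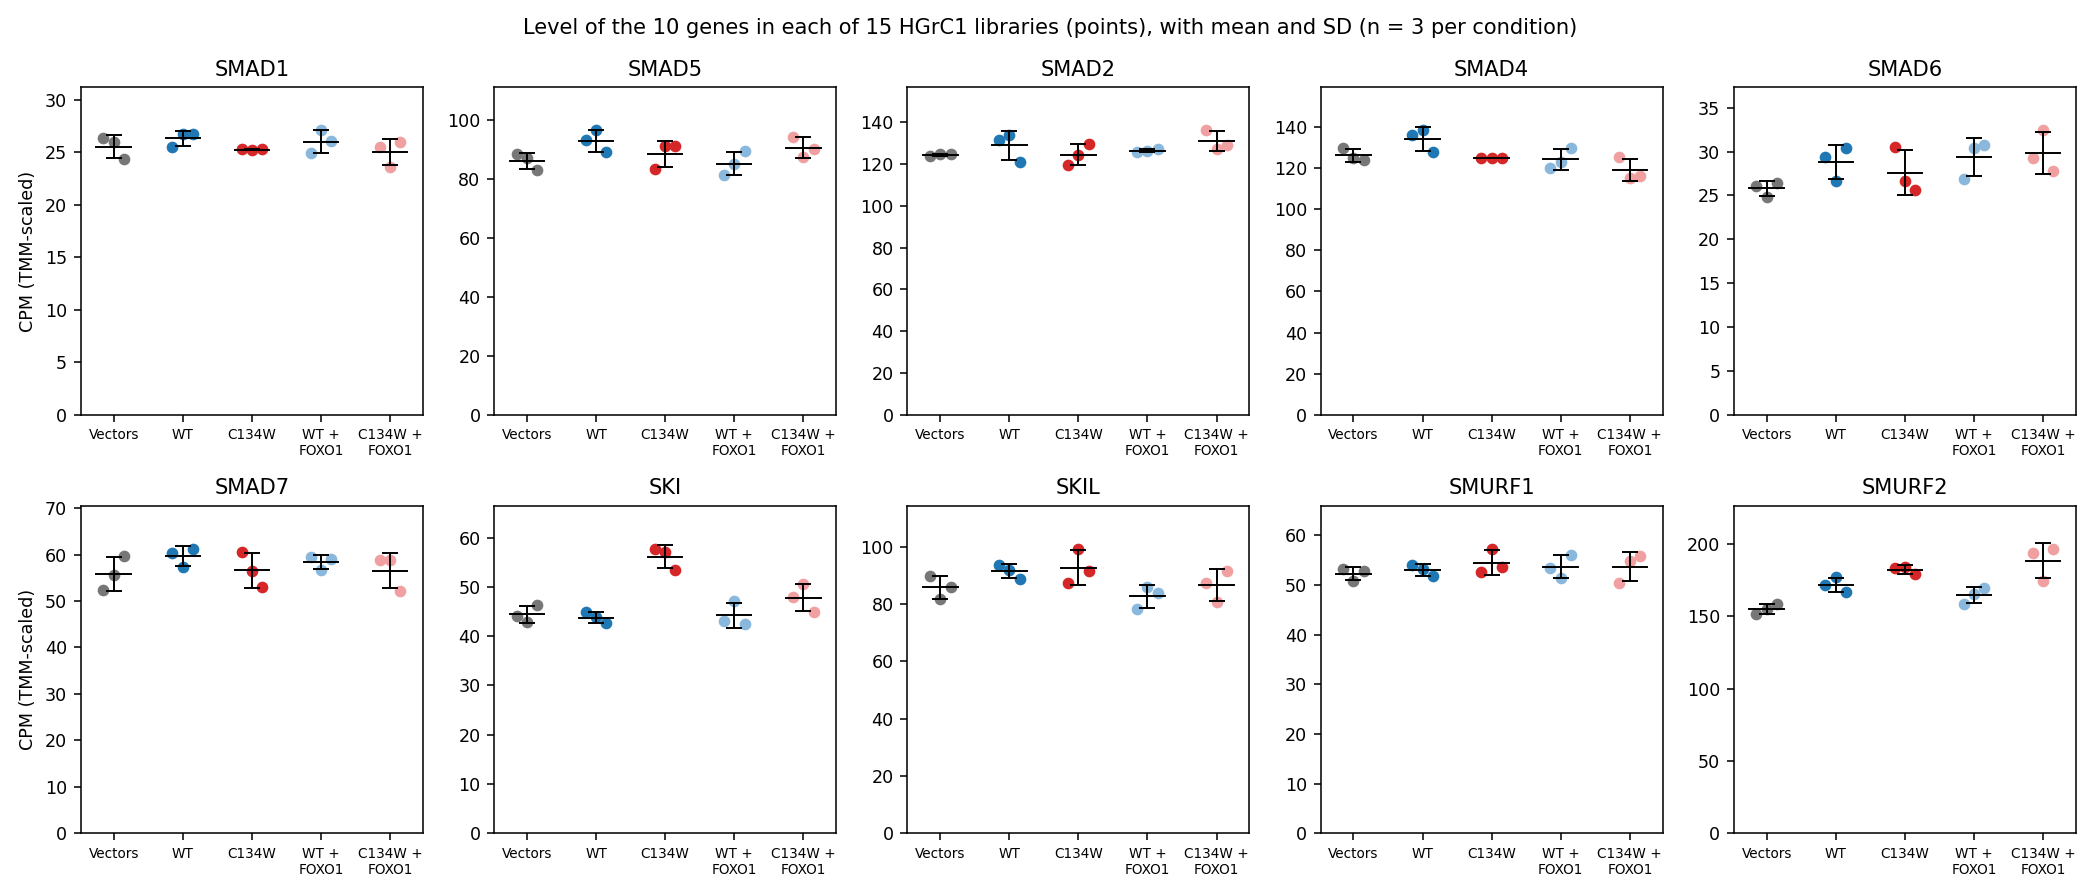
Level (CPM, TMM-scaled, axes from 0) of the 10 genes in each of 15 HGrC1 libraries, as points by condition, with the mean (line) and SD (bar) of 3 replicates. SKI stood at 53.5 to 57.8 CPM in FOXL2C134W against 42.5 to 50.5 CPM in all other libraries, SMURF2 was lowest in Vectors (152 to 158 CPM), and the other genes overlapped in most conditions.

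The call for SKI depended on how short transcripts were treated. Between 96.8% and 99.6% of its estimated reads lay in the protein-coding transcript SKI-201 (6083 bases). In TPM this transcript held only 35.8% to 92.9% of the gene, the rest being assigned to SKI-203 (539 bases, a retained intron) and SKI-202 (294 bases, noncoding). The effective length of SKI, weighted by TPM, therefore ran from 2151 to 5438 bases between libraries, and SKI-202 was listed at 0 TPM in every FOXL2WT and FOXL2C134W + FOXO1 library. In DESeq2 with these lengths as offsets SKI differed by 0.68 ± 0.29 (SE) between FOXL2C134W and FOXL2WT and was not called (adjusted p = 0.15), and by 0.53 ± 0.29 from Vectors (adjusted p = 0.33). With lengths and reads of transcripts of at least 1000 bases, an alternative chosen after seeing these values, the same tool gave 0.37 ± 0.07 (adjusted p = 5.33e-06) and 0.34 ± 0.07 (adjusted p = 2.07e-05). Its SKI-201 transcript alone was at 8.72 TPM ± 0.45 (SD, n = 3) in Vectors, 8.49 ± 0.22 in FOXL2WT, 11.2 ± 0.56 in FOXL2C134W, 8.42 ± 0.74 in FOXL2WT + FOXO1 and 9.42 ± 0.38 in FOXL2C134W + FOXO1. SKI is rich in G and C (62.4%, a percentile of 91.8 among genes tested), and with an offset for GC content it was 0.35 ± 0.05 higher in FOXL2C134W than in FOXL2WT (edgeR adjusted p = 0.000386).

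**Figure D4:**
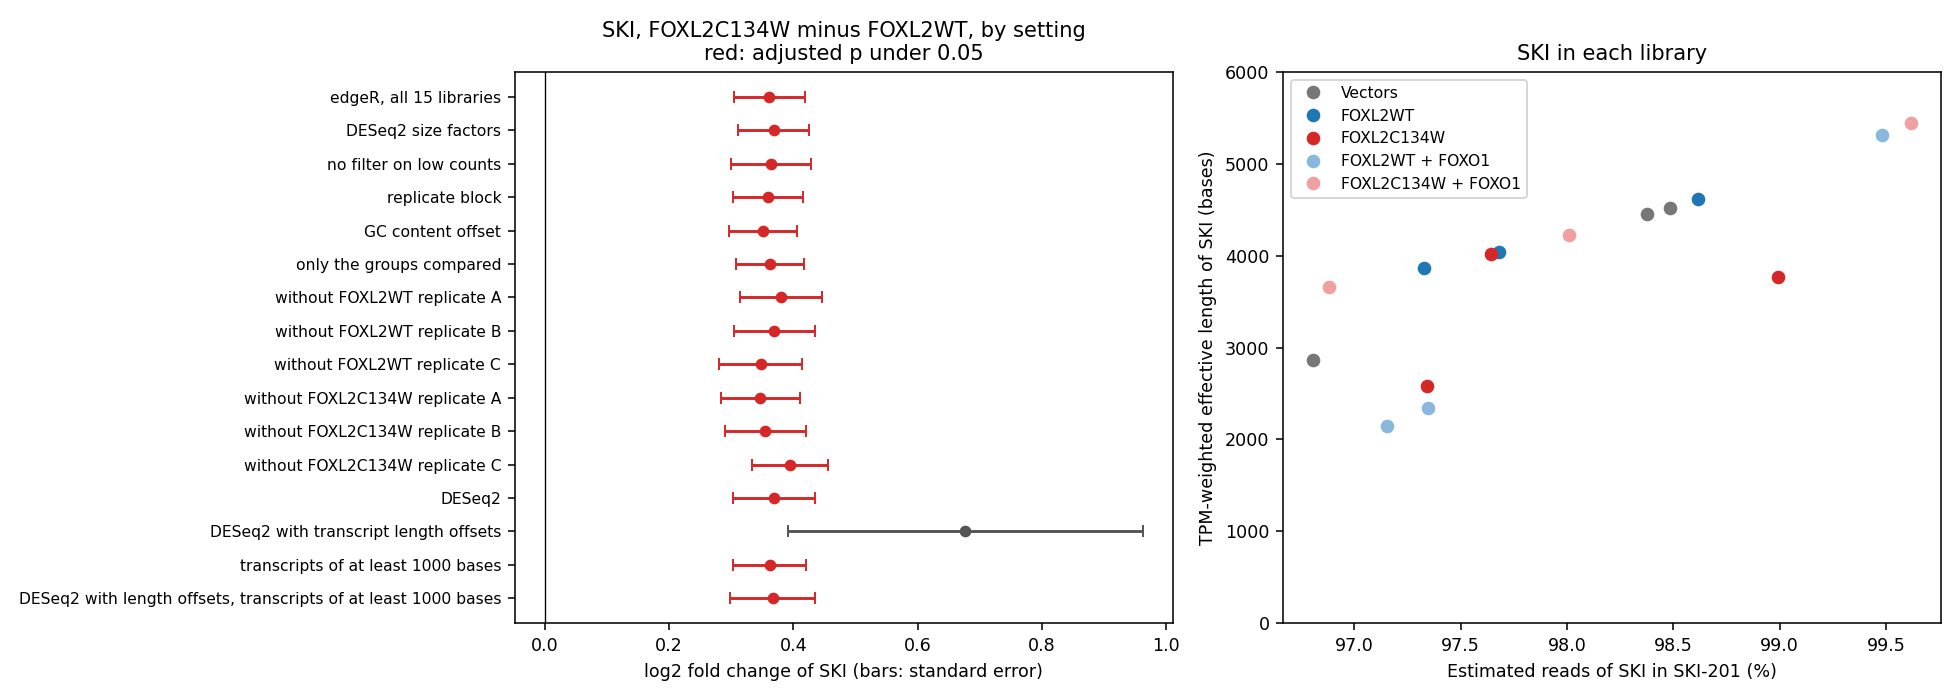
Left, log2 fold change of SKI in FOXL2C134W against FOXL2WT with its standard error under each setting, called values in red; it lies near 0.36 in all but DESeq2 with transcript length offsets (0.68, adjusted p = 0.15). Right, the share of SKI reads in SKI-201 (x, percent) and the TPM-weighted effective length of SKI (y, bases) in each library; shares of 96.8% to 99.6% go with lengths of 2151 to 5438 bases.

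SKIL (chr3:170357342-170396835, plus strand), the paralog of SKI that TGF-beta signals both degrade and induce, was not called in any comparison by edgeR with all libraries. No 75-base stretch, the length of a read, was shared between the transcripts of SKI and SKIL, nor between any other pair of these genes or with SMAD3 and SMAD9. SKIL was at 89.8, 81.7 and 85.9 CPM in Vectors, 93.6, 91.9 and 88.8 CPM in FOXL2WT and 87.2, 99.4 and 91.7 CPM in FOXL2C134W, with overlapping ranges. The difference between FOXL2C134W and FOXL2WT was 0.02 with a 95% interval from -0.10 to 0.14. Between FOXL2C134W and Vectors it was 0.11 (95% interval -0.0074 to 0.23, edgeR adjusted p = 0.21). SKIL is poor in G and C (37.1%, a percentile of 2.11 among genes tested), and with the GC offset this difference was 0.15 ± 0.04 and passed (edgeR adjusted p = 0.013). FOXL2WT + FOXO1 (78.2, 86.0 and 83.8 CPM) lay below FOXL2WT without overlap, by 0.14 ± 0.06 on the log2 scale, and was not called (edgeR adjusted p = 0.49).

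SMURF2 (chr17:64542282-64662307, minus strand), a ligase for receptor-activated SMADs and, through SMAD7, for the receptors, was the second gene called. It was at 152, 155 and 158 CPM in Vectors, 172, 177 and 167 CPM in FOXL2WT and 184, 184 and 179 CPM in FOXL2C134W. The 3 ranges did not overlap, with Vectors lowest and FOXL2C134W highest. SMURF2 rose 1.18-fold in FOXL2C134W against Vectors (log2 fold change 0.23 ± 0.04, SE, 95% interval 0.14 to 0.33, edgeR adjusted p = 0.0016). The difference of FOXL2WT from Vectors, 0.15 ± 0.05, missed the threshold in edgeR (adjusted p = 0.061). It passed in 0 of 6 fits without 1 library and in 3 of 9 other alternatives, among them DESeq2 (0.14 ± 0.05, adjusted p = 0.038). FOXL2C134W and FOXL2WT differed by 0.09 (95% interval -0.01 to 0.18, edgeR adjusted p = 0.23), which did not pass.

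In FOXL2C134W + FOXO1 SMURF2 was at 194, 175 and 197 CPM, and in FOXL2WT + FOXO1 at 159, 166 and 169 CPM. Every library of the former exceeded every library of the latter, by 0.19 ± 0.04 on the log2 scale. This was not called with all libraries (edgeR adjusted p = 0.12). It passed in 1 of 6 fits without 1 library, that without replicate B of FOXL2C134W + FOXO1, the lowest of its condition (0.24, adjusted p = 0.027), and in 2 of 9 other alternatives, among them DESeq2 (0.19, adjusted p = 0.0073). In the fits where it did not pass, the adjusted p reached 0.40. FOXO1 added to FOXL2C134W changed SMURF2 by 0.05 (95% interval -0.05 to 0.14), which did not pass.

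SMURF2 was the one gene of the 9 with a CAGACA element, the CAGA box of SMAD3 and SMAD4 targets, in its promoter window, and the sequence is shown for this reason. The element, searched on both strands, was in 16.9% of all windows. In SMURF2 it spans the start itself, and the last 5 of the bases below are transcribed. The stretch is chr17:64662303-64662427 on the minus strand (GRCh38.p14, RefSeq), with the element in capitals.
SMURF2: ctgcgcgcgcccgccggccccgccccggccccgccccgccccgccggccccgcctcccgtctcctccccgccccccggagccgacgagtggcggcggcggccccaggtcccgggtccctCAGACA
A match of these letters is a description of the window, and no binding was measured.

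SMURF1 (chr7:99027440-99144108, minus strand), the related ligase, which acts on BMP-branch SMADs, was the steadiest gene together with SMAD2. It was at 50.8 to 53.2 CPM in Vectors, 51.8 to 54.1 in FOXL2WT and 52.6 to 57.3 in FOXL2C134W, and all 3 ranges overlapped. Its 95% interval for FOXL2C134W against Vectors was -0.05 to 0.17 on the log2 scale. Exons of SMURF1 share 735 bases (11.7% of its exon length) with TRRAP on the other strand, and those of SMURF2 share 180 bases (2.5%) with CEP95. Use of the strand in counting is not given in the sources used here, so reads from these stretches may be divided between the genes. TRRAP rose in FOXL2C134W against Vectors (0.34, edgeR adjusted p = 0.0056), and CEP95 differed by 0.16 (adjusted p = 0.26). The part of either in the SMURF values was not tested.

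The libraries of 2 conditions did not overlap for 3 of 10 genes in FOXL2WT against Vectors (SMAD5, SMAD6 and SMURF2; 31.1% of all genes), 2 in FOXL2C134W against Vectors (31.8%) and 4 in FOXL2C134W against FOXL2WT (SMAD1 and SMAD4 lower, SKI and SMURF2 higher; 30.4%). With FOXO1 there was 1 such gene in each comparison: SKIL in FOXL2WT + FOXO1 against FOXL2WT (14.5%), SKI in FOXL2C134W + FOXO1 against FOXL2C134W (14.0%) and SMURF2 in FOXL2C134W + FOXO1 against FOXL2WT + FOXO1 (15.2%). The median log2 difference over the 10 genes was 0.09 in FOXL2WT against Vectors, 0.05 in FOXL2C134W against Vectors and -0.05 in FOXL2C134W against FOXL2WT, beside medians of 0.003, 0.004 and -0.01 over all genes tested. In FOXL2WT against Vectors 9 of 10 values were above 0. For the genes not called, the 95% intervals in FOXL2C134W against FOXL2WT reached from -0.23 (SMAD6) to 0.18 (SMURF2).

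Other SMAD regulators were read from a list of 37 genes, of which 32 passed the filter. In FOXL2C134W against Vectors 5 rose and 1 fell, where 14.7% of all genes were called and 7.48% rose, with a median of 0.08 over the list. The number that rose was 3 (CREBBP, EP300 and PMEPA1) without Vectors replicate B or C or FOXL2C134W replicate B or C, and 3 (CREBBP, IPO7 and NCOR1) in DESeq2 with transcript length offsets. It was 8 without FOXL2C134W replicate A and 9 with the GC offset. Calls over all genes in either direction, 2041 as reported, moved too. They were 1326 and 1348 without Vectors replicate B or C, and 1275 and 1560 without FOXL2C134W replicate B or C. They were 936 with transcript length offsets, 2126 without FOXL2C134W replicate A and 2464 with the GC offset. CREBBP and EP300, the acetyltransferases that SMADs recruit, rose by 0.49 ± 0.10 and 0.33 ± 0.07 on the log2 scale (edgeR adjusted p = 0.002 and 0.0038), as did PMEPA1, an inhibitor of receptor-activated SMADs (0.33 ± 0.07). TGIF1, a corepressor of SMAD2 and SMAD3, fell by 0.28 ± 0.05. In FOXL2C134W against FOXL2WT 5 rose and 1 fell as well: CREBBP rose by 0.82 ± 0.10, NCOR1, a scaffold of the corepressor complex that SKI joins, by 0.54 ± 0.09 and EP300 by 0.51 ± 0.07, and TGIF1 fell by 0.29 ± 0.05. The background was 11.2% called and 7.13% higher. The rises were 3 (CREBBP, EP300 and NCOR1) without FOXL2WT replicate A and 3 (CREBBP, NCOR1 and RANBP3) in DESeq2 with transcript length offsets. They were 9 without FOXL2C134W replicate A and 8 in DESeq2 and with the GC offset. Over all genes 1065, 708, 2120, 1688 and 2041 were called in these fits, in this order, against 1560 as reported. In FOXL2WT against Vectors 0 of the 32 were called by edgeR as reported (6.07% of all genes), with 4 at an unadjusted p under 0.05 and 1 (CREBBP, lower) called by DESeq2. With only the groups compared and without the filter edgeR called 4: CREBBP, EP300 and NCOR1 lower and STUB1 higher (1690 and 1345 of all genes). With the GC offset it called 2 (IPO7 and STUB1, higher). Over all genes it called 1205 with this offset, and DESeq2 called 990. CREBBP was at 38.2 CPM ± 2.74 (SD, n = 3) in Vectors and 30.3 ± 2.19 in FOXL2WT, and EP300 at 69.05 ± 0.53 and 61.2 ± 3.56. SMAD9, the remaining receptor-activated SMAD, was at 16.3 CPM ± 1.23 (SD, n = 3) in Vectors and 17.5 ± 1.13 in FOXL2C134W and was not called.

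With FOXO1 added to FOXL2C134W, 1 of the 32 regulators was called (0.714% of all genes): CREBBP fell by 0.53 ± 0.10 (log2, SE, edgeR adjusted p = 0.017), a call lost without FOXL2C134W replicate B or C (-0.49 and -0.46) or FOXL2C134W + FOXO1 replicate A or C (-0.43 and -0.58), with only the groups compared (-0.53, edgeR adjusted p = 0.061) and with transcript length offsets in DESeq2 (-0.75, adjusted p = 0.15). With those offsets EP300 was not called over FOXL2WT (0.29, adjusted p = 0.47) and turned to -0.11 against Vectors (adjusted p = 0.86), and no rise was called for PMEPA1 over Vectors (0.35, adjusted p = 0.42).

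Of 8 genes that SMADs induce or repress in many cells, CCN2, a matricellular protein, rose in FOXL2WT (0.47 ± 0.05, log2, SE) and in FOXL2C134W (0.40 ± 0.05) against Vectors (edgeR adjusted p = 1.8e-05 and 3.5e-05). PMEPA1, itself a target, rose in FOXL2C134W as given above, and ID2 (-0.24 ± 0.05) and BHLHE40 (-0.25 ± 0.04), both transcriptional repressors, fell. ID2 was also lower in FOXL2C134W than in FOXL2WT (-0.18 ± 0.05, edgeR adjusted p = 0.019), a call lost without FOXL2WT replicate B or C or FOXL2C134W replicate B or C (-0.18, -0.16, -0.17 and -0.18), and also without the filter on low counts (-0.18), with only the groups compared (-0.18) and with transcript length offsets in DESeq2 (-0.16).

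The genes whose log2 CPM followed that of SKI most closely over the 15 libraries were TNS1 (Pearson r = 0.95), PPRC1 (0.93) and SIPA1L3 (0.92). TNS1 was at 176 CPM in Vectors, 175 in FOXL2WT, 247 in FOXL2C134W, 182 in FOXL2WT + FOXO1 and 205 in FOXL2C134W + FOXO1 (means of 3), the order seen for SKI in its first 2 places. For SMURF2 they were IPO5 (0.94), GEMIN5 (0.94) and ABCE1 (0.93). Replicates share their condition, so these correlations describe the 15 libraries and carry no test. Among the 10 genes themselves, SMAD2 and SMAD5 were most alike (0.71) and SMAD1 and SKI least (-0.41).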

How the data were processed

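RNA of HGrC1 cells was read in 15 libraries, placed in 5 conditions of 3 replicates each from the labels. The authors aligned 75-base single-end reads of stranded mRNA libraries with salmon 1.1.0 on hg38 and deposited estimated counts of 37787 genes as whole numbers, without normalization, and TPM values, reads and lengths of 227063 transcripts. Use of the strand and the annotation release are not given in the sources used here. Transcripts were named and placed by GENCODE 44, which may differ from the authors' release. No column was left unmapped.

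All 15 libraries were fitted together in edgeR 4.0.16 (R 4.3.3, limma 3.58.1) with filterByExpr, which left 13868 genes, TMM and the quasi-likelihood test, with Benjamini-Hochberg adjustment over all genes. Genes with an adjusted p under 0.05 were called. CPM values use TMM-scaled totals. Totals were 14962245 to 25339094. Pooled over all genes with enough counts, replicate pairs differed by more than counting error (chi-square per degree of freedom 2.21 to 8.84). This was not examined gene by gene. For members with few counts, such as SMAD1 (370 to 640), counting error may be as large as the spread between replicates. The 10 members and the lists of regulators, targets and markers were chosen with earlier results of these data known. Named were all members, the transfected genes, up to 4 called regulators per comparison, targets, and the 3 genes most correlated with each called member. Outside this rule, SMAD9 was named as the remaining receptor-activated SMAD, and IPO7, STUB1 and RANBP3 for their values under alternatives. TRRAP and CEP95, which overlap members, and the lowest and highest correlations between members were added after seeing the data. Alternatives were DESeq2 1.42.0 without and with transcript length offsets (the tximport route of the study), its size factors, no filter, only the groups compared, a replicate block, a GC offset (lowess, span 0.3), each library left out, and, added after seeing the data, only transcripts of at least 1000 bases in edgeR and in DESeq2 with length offsets. The edgeR fit of all libraries was also run on simulated counts drawn with its own dispersions, with results not given here. That run did not cover DESeq2 or the other alternatives. Tables and figures used Python 3.11.15, pandas 2.3.3, numpy 2.4.6 and matplotlib 3.10.9.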

Additional observations from a re-analysis of the deposited data

Results flagged for a closer look

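The effect of FOXO1 differed between FOXL2C134W and FOXL2WT (interaction test of edgeR) for 2 of the 32 SMAD regulators tested, where 1.38% of all genes were called. For CREBBP the effect of FOXO1 was 0.87 lower on the log2 scale in FOXL2C134W (value -0.87 ± 0.14, SE, adjusted p = 0.0065), and for EP300 it was 0.49 lower (-0.49 ± 0.10, adjusted p = 0.024). With FOXO1 the mean of CREBBP went from 30.3 to 38.4 CPM in FOXL2WT and from 53.7 to 37.1 CPM in FOXL2C134W. That of EP300 went from 61.2 to 69.9 CPM and from 87.2 to 71.05 CPM, so both alleles enter the interaction. Of these changes, edgeR called the fall of CREBBP alone. Without FOXO1 both genes were higher in FOXL2C134W than in FOXL2WT, and with it the alleles differed by -0.05 (CREBBP) and 0.02 (EP300). In DESeq2 with transcript length offsets neither was called (-0.96, adjusted p = 0.17, and -0.25, adjusted p = 0.87), and the call for EP300 was lost in 6 of 12 fits without 1 library: without FOXL2WT replicate B (-0.50) or C (-0.45), FOXL2C134W replicate B (-0.44) or C (-0.45), FOXL2WT + FOXO1 replicate B (-0.41) or FOXL2C134W + FOXO1 replicate A (-0.47).

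The same test also called the 3 transfected genes. The interaction was 0.41 ± 0.07 for SMAD3 (adjusted p = 0.0065), 0.60 ± 0.13 for FOXL2 (adjusted p = 0.033) and -1.41 ± 0.13 for FOXO1 (adjusted p = 4.7e-05). These counts mix plasmid and endogenous transcripts, so the values do not give the change in plasmid transcripts alone. In Vectors SMAD3 was at 249 CPM, and the part of this level in its interaction was not tested. For FOXO1 the interaction compares the level of the added gene itself between the 2 alleles. In RNA the alleles were unmatched with and without FOXO1. By immunoblot of samples cultured in parallel, the paper reports balanced protein levels of FOXL2WT, FOXL2C134W and FOXO1. In FOXL2WT and FOXL2C134W, SMAD3 was at 969 and 392 CPM with FOXO1 and 2768 and 843 CPM without it. FOXL2 was at 384 and 152 CPM with FOXO1 and 561 and 147 CPM without it, and FOXO1 at 117 and 43.2 CPM where added. In DESeq2 with transcript length offsets the interaction of SMAD3 was 0.05 (adjusted p = 0.95). That of FOXL2 lost its call in the fit of the groups compared (0.59) and in 9 of 12 fits without 1 library (0.47 to 0.64). None of the 10 SMAD genes, corepressors and ligases was called for the interaction by edgeR or DESeq2, with 2 (SKI and SMAD5) at an unadjusted p under 0.05.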

How the results depend on the processing

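The number of the 10 genes called in FOXL2WT against Vectors went from 0 to 1 (SMURF2) with the GC offset, with only the groups compared and in DESeq2. In FOXL2C134W against Vectors it went from 2 to 3 (SKIL added) with the GC offset, and from 2 to 1 and against FOXL2WT from 1 to 0 in DESeq2 with transcript length offsets, where SKI lost its call, and to 2 (SKI and SMAD4) in both fits on transcripts of at least 1000 bases. In FOXL2C134W + FOXO1 against FOXL2C134W it went from 0 to 1 (SKI) without the filter, in DESeq2 and in DESeq2 with length offsets on transcripts of at least 1000 bases, and it ran from 0 to 1 over fits without 1 library. In FOXL2C134W + FOXO1 against FOXL2WT + FOXO1 it went from 0 to 1 (SMURF2) without the filter and in DESeq2, and from 0 to 1 over fits without 1 library. The library behind both was replicate B of FOXL2C134W + FOXO1. SKI kept its call in 6 of 6 fits without 1 library in FOXL2C134W against FOXL2WT (0.35 to 0.39) and against Vectors (0.32 to 0.38), and SMURF2 in 6 of 6 against Vectors (0.23 to 0.26). Transcript length offsets moved SKI from 0.11 to -0.52 in FOXL2C134W + FOXO1 against FOXL2WT + FOXO1, from 0.02 to 0.60 and from -0.23 to -0.60 for FOXO1 in FOXL2WT and in FOXL2C134W, and from -0.25 to -1.20 in the interaction, none of them called. Of other regulators, EP300 turned from 0.33 to -0.11 in FOXL2C134W against Vectors with transcript length offsets, and RANBP3 from 0.22 to -0.15 in FOXL2C134W against FOXL2WT in DESeq2 with length offsets on transcripts of at least 1000 bases; the cause was not tested. For the 10 genes, none of 630 values under the 9 alternatives or 480 without 1 library reversed a call, and 41 and 43 uncalled values changed sign.

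Replicate letters did not pair the libraries: deviations of same-letter libraries of different conditions correlated at -0.16 to 0.17. The median was 0.004, beside 0.006 for libraries of different letters. For 5 of 15 libraries the mean correlation with libraries of other conditions was highest for their own of the 3 letters. With a replicate block, 2 of the 10 genes were called in FOXL2C134W against Vectors, 1 against FOXL2WT and 0 elsewhere, as without it, and 1994, 1562 and 836 of all genes in the comparisons of FOXL2C134W with Vectors and with FOXL2WT and of FOXL2WT with Vectors, against 2041, 1560 and 842. Over all genes, calls ran from 459 to 1690 over the other alternatives and 305 to 662 without 1 library in FOXL2WT against Vectors (842 as reported), 936 to 2464 and 1275 to 2126 in FOXL2C134W against Vectors (2041), 708 to 2041 and 772 to 2120 in FOXL2C134W against FOXL2WT (1560), 7 to 260 and 2 to 7 in FOXL2WT + FOXO1 against FOXL2WT (7), 32 to 463 and 5 to 355 in FOXL2C134W + FOXO1 against FOXL2C134W (99), 9 to 446 and 7 to 20 in FOXL2C134W + FOXO1 against FOXL2WT + FOXO1 (20), and 113 to 551 and 45 to 423 for the interaction (192). The highest of these for the comparisons with FOXO1 came without the filter on low counts. With 3 libraries a condition, standard errors of the 10 genes were 0.04 to 0.08 on the log2 scale between conditions and 0.06 to 0.11 for the interaction.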
